A study of Arabidopsis thaliana with 21 samples.

Results

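The regions described are those enriched in chromatin precipitated with Myc-tagged BPC1, set against Col input chromatin. They were taken as every region of the deposited BPC1 list on chromosomes 1 to 5, apart from chromosome 2 between 3 and 4 Mb, where the nuclear genome holds a large insertion of mitochondrial DNA. This gave 2262 of the 3139 BPC1 regions, in a series whose 4 lists hold 16859 regions in all. Another 360 regions lay in the omitted window, 420 on the mitochondrial genome and 97 on the plastid genome.

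BPC1 ChIP came from plants carrying the gBPC1-Myc transgene in the Col background, precipitated with an anti-Myc antibody. The Col input was not from these plants but from the gAZF1-Myc line, so it carries the Myc-tagged AZF1 transgene and not the BPC1 one. AZF1 ChIP came from that same line, through the same Myc tag, and shares the Col input with BPC1. FIE ChIP used an HA tag on pFIE:FIE-HA in fie-11 plants of the C24 accession, with input from C24. H3K27me3 and total H3 were precipitated from Col plants with no transgene. All plants were 30 h old, grown on plates under 16 h of light and 8 h of dark with no treatment, and each group has 3 samples labelled as biological replicates. Each antibody has 1 deposited list, with no replicate columns and no read counts. Depth is therefore unknown, no spread between replicates can be given, and intervals below cover counting error over regions only. The identity of the tissue cannot be checked against marker genes from lists of regions, and the sources do not say how many transgenic lines were used.

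BPC1 belongs to the BASIC PENTACYSTEINE proteins, plant factors that bind GA repeats and are named for a cysteine-rich DNA-binding domain. They are known for controlling homeotic, meristem and seed genes, and for recruiting Polycomb repressive complex 2 (PRC2) to them. PRC2, of which FIE is a WD40 subunit, adds 3 methyl groups to a lysine of histone H3 to give H3K27me3, a mark of genes held silent through development. AZF1 is a C2H2 zinc finger factor.

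BPC1 regions were narrow and of modest height. Their median width was 145 bp, with quartiles of 114 and 219.75 bp. The fold enrichment, the authors' value for ChIP over control at a region, had a median of 3.04, quartiles of 2.67 and 3.51, and a range of 1.98 to 11.8. They were spread over all chromosomes, with 556 on chromosome 1, 295 on chromosome 2, 459 on chromosome 3, 414 on chromosome 4 and 538 on chromosome 5. The density was 15.8 regions per Mb on chromosome 2 and 22.3 per Mb on chromosome 4, with the other chromosomes between. The 15 windows of 1 Mb that hold fewer than 100 protein-coding genes, held 601 regions (26.6%, 95% Wilson interval 24.8 to 28.4) on 12.7% of the bases. Regions there were lower, with a median fold of 2.73, against 3.15 for the 1661 regions of the chromosome arms, the term used here for the rest of the genome.

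Where the summits lay in relation to genes was examined first. The summit is the position of highest signal in a region. Of all BPC1 summits, 1504 (66.5%, interval 64.5 to 68.4) fell inside an annotated gene of any type, 402 (17.8%, 16.3 to 19.4) within 1 kb of a gene and 356 (15.7%, 14.3 to 17.3) further away. Genes cover 64.2% of the bases, the adjoining 1 kb covers 24.8% and the remainder 11.0%, so over the whole genome the share inside genes was close to the share of sequence. On the chromosome arms 78.6% of BPC1 summits (76.5 to 80.5) were inside genes, which make up 66.6% of the sequence there, and 15.1% were within 1 kb, which makes up 24.3%. In the gene-poor windows 33.1% were inside genes and 41.6% were further than 1 kb from any, where genes make up 47.8% of the sequence and the parts beyond 1 kb 24.2%. The share inside genes was thus above that of sequence on the arms and below it in the gene-poor windows.

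Inside a gene, the annotated gene was protein-coding at 1190 of 1504 summits (79.1%) and a pseudogene, a class that includes transposon remnants in this annotation, at 227. A summit inside several genes was assigned to a protein-coding one first. The counts were not set against the sequence that each type of gene covers, so they show no preference for a type. Among summits further than 1 kb away, the nearest gene was a pseudogene for 218 of 356 (61.2%) and protein-coding for 96.

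BPC1 summits lay inside genes more often than FIE summits did, and the difference from AZF1 depended on which part of the genome was counted. The shares inside genes were 66.5% for BPC1 and 50.1% for FIE, an odds ratio of 1.97 (95% interval 1.78 to 2.19, two-sided Fisher's exact test, p = 4.77e-38 after adjustment over 6 placement tests). Against AZF1, with 62.7% inside, the odds ratio was 1.18 (1.06 to 1.31, exact test adjusted p = 0.00341), but on the arms the shares were 78.6% for BPC1 and 81.6% for AZF1 and the odds ratio turned to 0.824 (exact test adjusted p = 0.0183). Gene-poor windows held 26.6% of BPC1 summits and 41.4% of AZF1 summits. Within 1 kb of a gene lay 17.8% of BPC1 and 25.5% of FIE summits (odds ratio 0.633, 0.558 to 0.717, exact test adjusted p = 5.56e-13), and the difference from AZF1 with 19.1% did not pass (odds ratio 0.913, 0.800 to 1.04, exact test adjusted p = 0.183). That comparison turned and passed on the arms, with 15.1% for BPC1 and 12.3% for AZF1 (odds ratio 1.26, exact test adjusted p = 0.0163), and with protein-coding genes only (1.61, exact test adjusted p = 2.01e-07). Further than 1 kb lay 15.7% of BPC1 and 24.4% of FIE summits (odds ratio 0.579, 0.508 to 0.660, exact test adjusted p = 1.02e-16). For AZF1 the share was 18.2% (odds ratio 0.841, 0.733 to 0.964, exact test adjusted p = 0.0164), and on the arms the odds ratio was 1.06 (exact test adjusted p = 0.694). Clustered regions make each p smaller than it should be, BPC1 and AZF1 share their input, and a place in both lists counts on both sides.

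**Figure D1:**
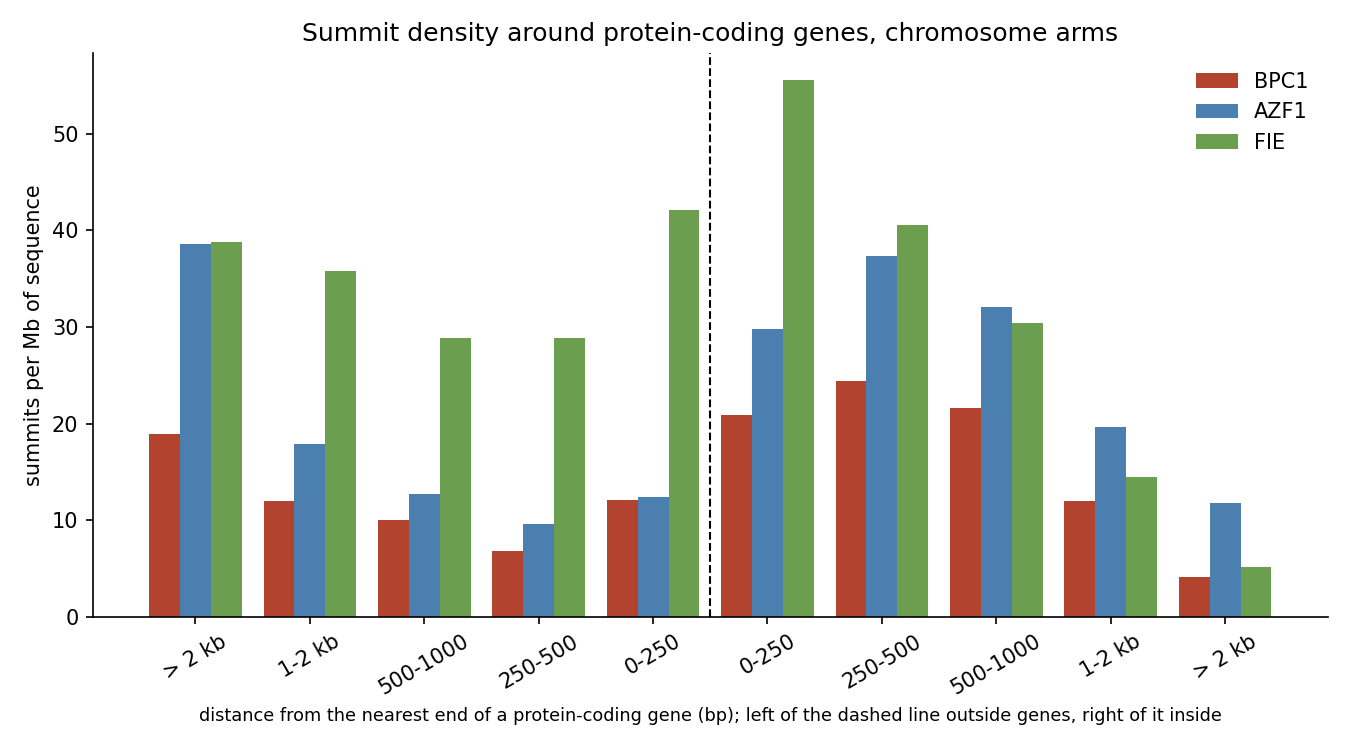
Summits per Mb of sequence (y axis) in bins of distance from the nearest end of a protein-coding gene (x axis, bp), on the chromosome arms, for BPC1, AZF1 and FIE; left of the dashed line the sequence is outside genes, right of it inside. BPC1 stood at 20.9 to 24.4 summits per Mb in the first 1000 bp inside a gene and at 6.81 per Mb between 250 and 500 bp outside, while FIE had its peak of 55.6 per Mb in the first 250 bp inside.

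The density of summits around protein-coding genes gives a finer view. On the arms BPC1 had 20.9 summits per Mb in the outer 250 bp of genes, 24.4 between 250 and 500 bp from the nearer end and 21.6 between 500 and 1000 bp. Deeper inside, it had 12.0 per Mb between 1 and 2 kb and 4.08 beyond 2 kb. Outside genes the density was 12.1 per Mb in the first 250 bp and 6.81 between 250 and 500 bp, the lowest bin outside, and 18.9 beyond 2 kb. FIE had 55.6 per Mb in the outer 250 bp inside genes and 42.1 in the first 250 bp outside. Along protein-coding genes of at least 1 kb there were 1148 pairs of a BPC1 summit and a gene that held it. A summit inside several genes counts for each. Of these pairs 253 (22.0%) lay in the outermost 10% of the length at either end, and 193 (16.8%) in the innermost 10% on each side of the middle. For FIE these shares were 28.6% and 15.4%. The gene table used carries no strand, so the starts and the ends of genes are counted together, and no division into promoter, exon and intron was made.

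Fold differed little between places on the arms. The median was 3.14 inside genes (quartiles 2.77 and 3.63), 3.23 within 1 kb (2.93 and 3.79) and 3.13 further away (2.83 and 3.68).

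Genes were then called marked where a BPC1 summit lay in the gene or within 1 kb of either end. By this rule 1512 of 27444 protein-coding genes were marked (5.51%), and 1036 held a summit inside the gene (3.77%). Marked genes had a median length of 2253 bp, and all protein-coding genes one of 2078 bp. Among other kinds of gene the shares were 10.5% of 3917 pseudogenes, 8.59% of 326 miRNA genes, 4.05% of 3480 lncRNA genes and 1.44% of 625 tRNA genes. A summit can mark neighbours as well. Of the 2262 summits 827 marked no protein-coding gene, 1086 marked 1 and 349 marked 2 or more.

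The 20 highest regions lay at 17 genes. At the top was EMF1, which encodes a plant-specific protein of Polycomb silencing, with a fold of 11.8 (TAIR10, chromosome 5, 3695715 to 3697157). The authors' FIE fold at the same place was 26.8, the AZF1 fold 5.64 and the H3K27me3 fold 3.31. Second was AG (AGAMOUS), the MADS-box gene that specifies stamens and carpels, with 8.92 (chromosome 4, 10386185 to 10386704), where FIE had 25.5, AZF1 5.21 and H3K27me3 3.56. PTL (PETAL LOSS), a trihelix factor of perianth growth, had 8.77 (chromosome 5, 957202 to 958490), with 14.6 for FIE. Folds of different lists are on different controls and are set side by side without comparison.

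Next in order stood 2 genes of no symbol, AT3G06435 with 8.12 and AT2G03040 with 7.01 at 789 bp outside the gene. NAC067, of the NAC domain family, followed with 6.80, the response regulator gene RR19 with 6.73, and LRP1 (LATERAL ROOT PRIMORDIUM 1, of the SHI family) and JAG (JAGGED, a zinc finger gene of lateral organ growth) with 6.64 each. BOP1 (BLADE-ON-PETIOLE 1, a gene of leaf and organ boundaries) had 6.62, with the summit 22 bp outside the gene. The rest of the highest 20 were 3 regions in STY1, a second region at EMF1, and 1 each at YAB3, PLT2, the lncRNA gene AT3G09365, the RNA gene AT3G00360, AGL8 (FRUITFULL) and SEP1, with folds of 6.03 to 6.52. Of these 20 regions 15 had the summit inside a gene, 20 overlapped a FIE region, 18 an AZF1 region and 18 an H3K27me3 region.

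Several regulators held clusters of regions. A summit had another within 1 kb in 510 cases (22.5%), and joining such neighbours left 1958 places, of which 1752 held a single region. By gene, 1294 of the 1512 marked protein-coding genes had 1 summit, 162 had 2, 43 had 3 and 13 had 4 or more. The gene with most summits, 7, was AT4G16560, at the end of a group of neighbouring genes (AT4G16545, AT4G16550 and AT4G16555) that shared regions with folds of up to 5.56. BOP1 had 5, with folds of 6.62, 3.90, 3.45, 4.05 and 3.77 in order along the chromosome. STY1, a SHI family gene of style and leaf development, had 4 within 2127 bp, with folds of 6.16, 6.03, 6.52 and 3.96.

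In CUC2 (CUP-SHAPED COTYLEDON 2), a NAC gene of organ boundaries, 4 regions ran from one end of the gene to the other, with folds of 2.98, 4.28, 3.43 and 3.60. YAB3, a YABBY gene of the abaxial leaf side, had 3.82, 4.66, 6.34 and 3.46. RPL, SAP, SPL8 and TCP14 also had 4 each. AG had 3 regions, all inside the gene and between 2016 and 3527 bp from its lower-coordinate end by summit, with folds of 4.23, 3.82 and 8.92. UBQ13, with 6 low regions, and its neighbour AT1G65346, with 4, differed from these in that no FIE region lay at them.

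**Figure D2:**
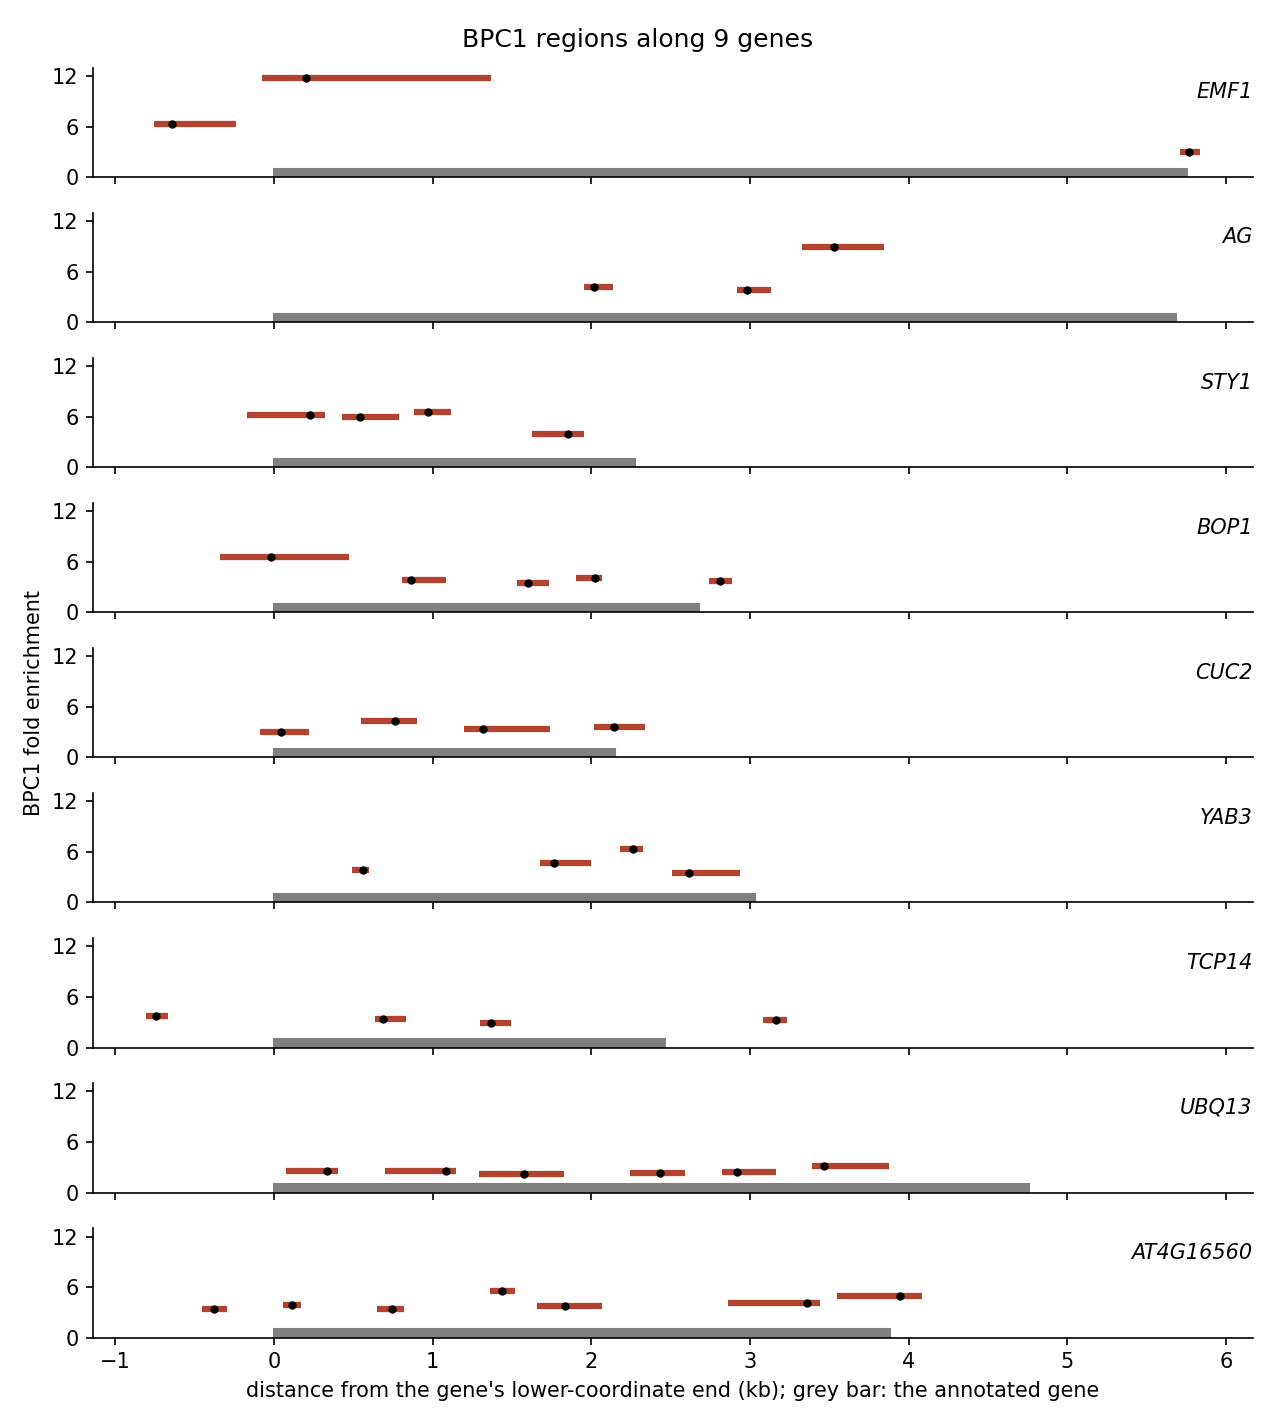
Authors' BPC1 fold enrichment (y axis) of each region marking 9 genes against distance from the gene's lower-coordinate end (x axis, kb); red bars show the extent of a region, dots its summit and grey bars the annotated gene, whose strand is not shown. The region in EMF1 reached 11.8, STY1, BOP1, CUC2 and YAB3 carried regions along most of their length, and the 6 regions of UBQ13 stayed between 2.15 and 3.11.

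Which functions the marked genes have was read from 25 lists and 68 families of genes, set beside the 5.51% of all protein-coding genes. Over all marked protein-coding genes the median of the highest fold per gene was 3.13. A longer gene has more room for a summit, and the shares were not adjusted for length, nor for carrying FIE or H3K27me3. Median lengths were 3621 bp in the MADS-box floral list, 3559 bp for KNOX and BELL and 4012 bp for polarity genes. They were 1980 bp for boundary genes and 1730 bp for floral meristem and organ shape genes, beside 2078 bp for all protein-coding genes. Floral identity genes of the MADS-box family had the largest share of the 25 lists, with 18 of 23 marked (78.3%), 17 of them by a summit inside the gene (73.9%, beside 3.77%), and a median fold of 4.13. AG led with 8.92, then AGL8 with 6.06 and SEP1 with 6.05. SVP, a repressor of flowering, had 5.29 and TT16, an ovule and seed coat gene, 4.97. AP1, which sets floral meristem and sepal identity, had 4.89, SEP2 4.75 and the petal and stamen gene PI 4.73. AP3, its partner, had 2.99.

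Lower values stood at AGL42 (4.29), SEP3 and AGL20 (SOC1) with 3.97 each, AGL6 and AGL24 with 3.65 each, SHP1 (3.24), AGL12 (3.11), STK (3.08) and SHP2 (2.85). SEP4, CAL, AGL13, AGL17 and AGL19 had no summit. All 18 marked members also carried FIE and H3K27me3, as did most of the list, in which 20 of 23 carried FIE and 22 of 23 H3K27me3. Over the whole MADS-box family the share was 22 of 100, so 4 marked genes lay outside the floral list: AGL44, AGL71, AGL87 and AGL78.

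Genes of organ boundaries were marked in 10 of 19 cases (52.6%). BOP1 had 6.62, JLO, a LOB domain gene, 5.16 and LAS, a GRAS gene of axillary meristems, 4.80. CUC1 and CUC3 had 3.78 and 2.90, LSH1 3.46, BOP2 3.32, MYB37 2.82 and MYB117 2.72. AS1, AS2 and LOB held no summit. CUC1 differed from CUC2 and CUC3 in carrying neither FIE nor H3K27me3.

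Of 17 organ polarity genes 8 were marked (47.1%). YABBY genes, which set the abaxial side of leaves and floral organs, made up 5 of these and 5 of the 6 members of their family: YAB3 (6.34), AFO (FILAMENTOUS FLOWER, 5.93), YAB5 (3.65), INO (3.35) and CRC (3.02). KAN2 had 4.91 and KAN 3.28. PHV (2.65) was the marked HD-ZIP III gene, while PHB, REV, ATHB-15 and HB-8 of that adaxial class had none.

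Meristem homeobox genes followed. KNOX and BELL genes, whose proteins pair to keep meristem cells undifferentiated, were marked in 7 of 15 cases (46.7%), all by a summit inside the gene. BLH4 had 4.98, RPL 4.73, STM, the gene that maintains the shoot meristem, 4.39, and KNAT6 3.64. BLH2 had 3.21, BEL1 3.04 and KNAT1 2.83. Of 18 WUSCHEL and stem cell genes 4 were marked (22.2%): WOX1 (3.90), the stem cell gene WUS (3.71), WOX11 (3.47) and the WOX gene listed as HB-3 (3.02). CLV1, CLV2 and CLV3 had none.

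Floral meristem and organ shape genes were marked in 11 of 25 cases (44.0%). Beside PTL, JAG and STY1 these were NUB, the close relative of JAG, with 4.71 at 929 bp from the gene, SPL (SPOROCYTELESS) with 4.48, NGA2 with 4.44, STY2 with 3.93, HEC2 with 3.29, IND with 3.24, ANT with 3.18 and NGA3 with 2.70. LFY and UFO had no summit. In the SHI and STY family, activators of auxin synthesis in young organs, 6 of 9 genes were marked, SRS7 with 5.97 and SHI with 5.66 among them, and LRP1 is a further gene of this family that the name search did not catch.

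Root factors were marked in 7 of 19 cases (36.8%). PLT2, which maintains the root stem cell niche, had 6.18, and PLT1 3.55 with its summit 992 bp outside the gene. JKD had 3.90, GL2, which sets hairless root epidermis, 3.86, the root cap genes FEZ and SMB 3.81 and 3.58, and MGP 3.42. SHR and SCR held none. Of the TCP factors, regulators of leaf growth and branching, 8 of 23 were marked (34.8%), TCP2 with 4.01, TCP5 with 3.94, TCP14 with 3.73, TCP15 with 3.67, PTF1 with 3.66, TCP1 with 3.58, TCP10 with 3.23 and BRC1 with 2.93. SPL factors of phase change had 3 of 17, SPL8 with 4.24, AT1G69170 (SPL6) with 3.02 and SPL2 with 2.97. The region at AT1G69170 is the one counted for CRC, with its summit inside CRC and 123 bp outside AT1G69170.

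Embryo and seed maturation factors were marked in 5 of 17 cases (29.4%): FUS3 (4.43), ABI5 (4.25), LEC2 (3.64), ABI3 (3.45) and BZO2H1 (2.62). LEC1, ABI4 and WRI1 had no summit. Binding of class I BPC proteins to control sequences of single genes is known from earlier work for INO, STK, STM, KNAT1 and LEC2, and each of these held 1 or 2 summits inside the gene. These genes are not a full list of known targets, so they give no share of targets marked. Whether the summits lie at the known control sequences was not examined. At INO, an ovule gene, the folds were up to 3.35, and at STK, another ovule gene, 3.08.

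Hormone lists ranged between 0 and 22.2%. Of 27 genes of auxin synthesis and transport 6 were marked (22.2%): the root efflux carrier gene EIR1 (PIN2) with 4.97, TAA1 with 4.08, YUC1 with 3.24, AUX1 with 3.02, PIN7 with 2.88 and YUC3 with 2.56. The summits of YUC1 and YUC3 lay 295 and 854 bp outside the gene, that of YUC3 inside its neighbour HCAR. In auxin response 6 of 41 were marked (14.6%), the factor NPH4 (ARF7) with 3.50, IAA2 with 3.35, PAP1 with 3.32, the receptor TIR1 with 3.19, IAA16 with 2.70 and IAA28 with 2.67, and 3 of the 6 held the summit inside the gene. Gibberellin genes had 3 of 29, GID1B (3.48), GA3OX3 (3.38) and GA20OX2 (3.29). In the cytokinin list 1 of 41 was marked, the oxidase gene CKX6 (3.74), in the abscisic acid list 1 of 28, SNRK2.2 (3.32), and in the ethylene list 0 of 24.

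The flowering time list stood near the background, with 2 of 31 (6.45%), FCA (3.34) and RAP2.7 (2.98), and FT, CO and FLC were without a summit. SVP, the repressor of flowering, AGL20 (SOC1), AGL24 and AGL42 were counted in the floral identity list instead. There they were marked, while AGL17 and AGL19 were not, so the shares of both lists depend on how the lists were drawn. Light signalling genes had 3 of 24, all by summits outside the gene, led by PHOT2 with 5.85 at 461 bp, and 1 of 24 with genes extended by 500 bp. Cell cycle genes had 4 of 25, with folds of 2.39 to 2.91 and CYCD1;1, a D-type cyclin gene, highest. Seed storage and oleosin genes had 2 of 17, OLEO3 (3.70) and CRU3 (3.27), and housekeeping genes 2 of 24, UBQ10 (4.04) and GAPC1 (2.81). Photosynthesis genes had 0 of 26.

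The lists of the Polycomb machinery and of BPC genes had 1 marked gene each, too few to set apart from the 5.51% of all protein-coding genes. The shares were 12.5% of 8 PRC2 core genes, 5.88% of 17 PRC2-linked and PRC1-like genes and 14.3% of 7 BPC genes. Of the 8 PRC2 core genes EMF2, a subunit of the vegetative complex, had 2 summits inside the gene with a highest fold of 3.80 and neither FIE nor H3K27me3. Of 17 PRC2-linked and PRC1-like genes EMF1 was the marked one. In the BPC family it was BPC1, through 1 region of fold 2.29 at 442 bp from the gene (chromosome 2, 429273 to 429609). The ChIP plants carry a further copy of BPC1 and the input plants do not, so a signal from that copy and binding near the gene cannot be told apart.

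**Figure D3:**
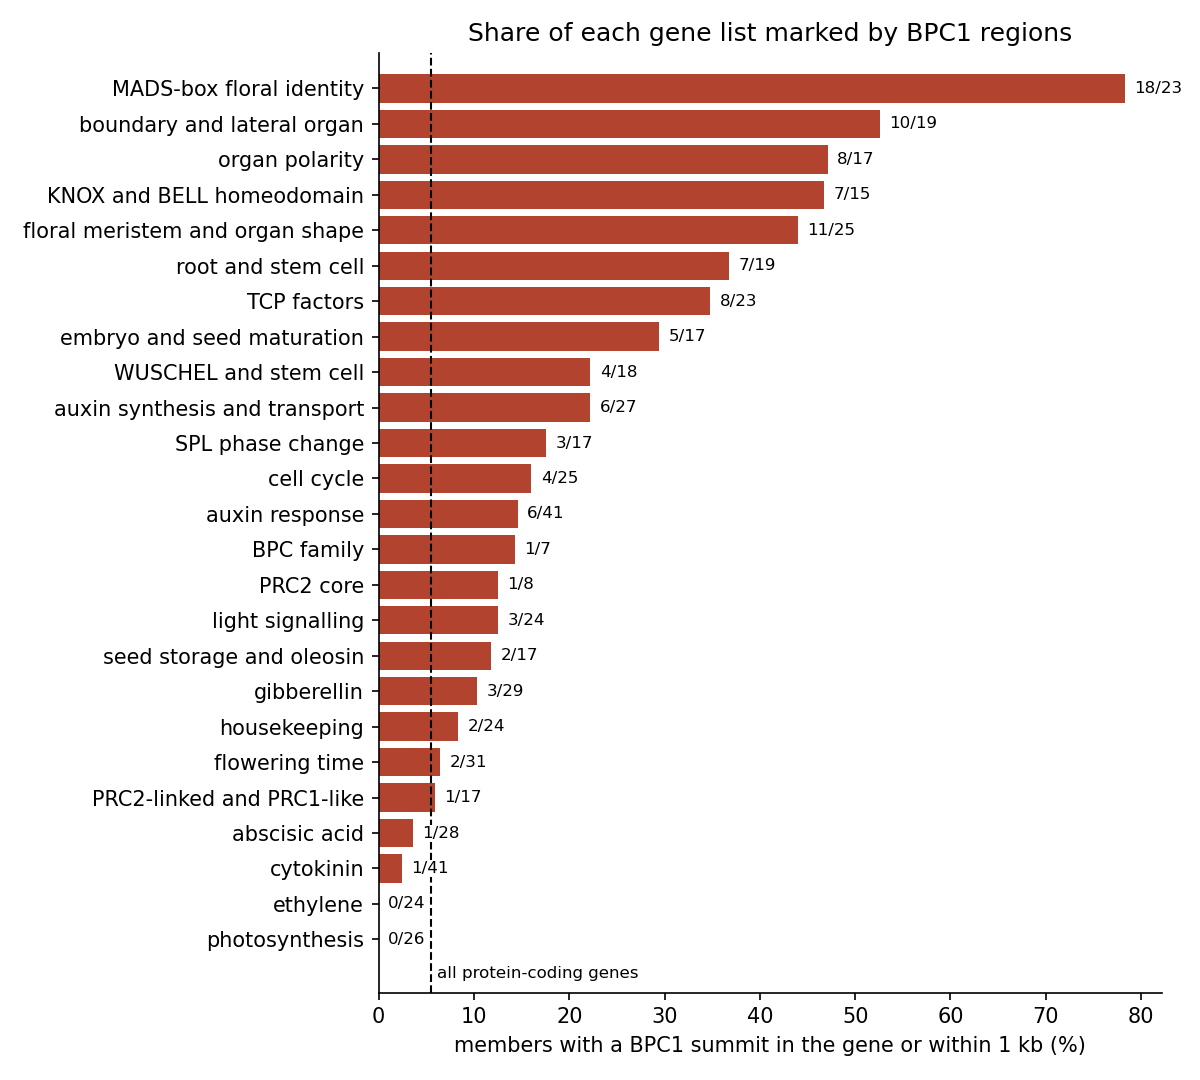
Share of each gene list with a BPC1 summit in the gene or within 1 kb (x axis, percent), with the number marked over the number found beside each bar; the dashed line is the 5.51% of all protein-coding genes. MADS-box floral identity genes stand at 78.3%, boundary, polarity, KNOX and BELL, and floral organ shape genes between 44.0% and 52.6%, and cytokinin, ethylene, abscisic acid and photosynthesis genes below the line.

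Transcription factor families differed among themselves. Large shares were seen in the C2H2 zinc finger genes (11 of 30, led by ZFP7 with 5.40 and IDD16 with 5.13), zinc finger homeodomain genes (5 of 14, led by HB33 and HB24 with 3.93 each), DOF genes (6 of 17, led by OBP3 with 4.30), HDG homeodomain genes (4 of 12, led by HDG2, an epidermal gene, with 5.51) and AINTEGUMENTA-like genes (3 of 7). Growth-regulating factors had 3 of 9, led by GRF8 with 3.65. In transcription factor families of over 40 genes the shares were 27.3% of 44 homeobox genes named HB or ATHB, 22.0% of 100 MADS-box genes, 17.0% of 100 NAC genes, 15.3% of 72 WRKY genes, 15.2% of 46 bZIP genes and 13.6% of 125 MYB genes. Families can share genes, and the marked HB or ATHB genes include all 5 marked zinc finger homeodomain genes and the HDG gene HB-7. Smaller shares were seen in ERF genes (3 of 26, 11.5%), auxin response factors (2 of 23, 8.70%) and response regulators (2 of 24, 8.33%). DREB and CBF genes had 1 of 14 (7.14%) and OVATE genes 1 of 18 (5.56%). Of 8 B3 REM genes none was marked, too few genes to set against the 5.51% of all protein-coding genes. Over the 791 genes whose listed names carry a transcription factor term, 123 were marked (15.5%), with a median highest fold of 3.50.

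Among genes of other functions the shares lay on both sides of the background. U-box ubiquitin ligase genes had 3 of 23, expansin genes 4 of 36 (11.1%) and XTH genes, which remodel the cell wall, 5 of 33 (15.2%). Of these XTH genes, XTH25 was marked by a region whose summit lay inside its neighbour TCH4, which was counted as well. Genes whose listed names carry a kinase term had 21 of 583 (3.60%), and the marked ones include genes of other kinds, such as ANT. Cytochrome P450 genes had 11 of 239 (4.60%), transporter genes 29 of 440 (6.59%) and ribosomal protein genes 4 of 59 (6.78%). Embryo-defective genes, most of them genes of basic cell functions, had 2 of 256 (0.781%). Of these, EMB3142 was marked by the region counted for OLEO3, whose summit lay outside both genes. None of 34 RALF peptide genes and none of 84 cysteine-rich LCR genes was marked. Both families are short, with median lengths of 575 and 602 bp, which leaves less room for a summit. The names come from symbols and synonyms in the gene table, which leaves many genes without a class.

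Among the 28 marked miRNA genes were many of the conserved families that act on developmental factors. MIR172a, whose product targets AP2-like genes, had 5.97 and MIR172d 4.56. MIR166a, MIR165b and MIR165a, whose products target HD-ZIP III genes, had 4.61, 4.06 and 3.45. MIR160a (4.58) and MIR167a (4.84) act on auxin response factors, MIR319a (4.39) on TCP genes, MIR156c (3.21) on SPL genes and MIR171a (2.86) on GRAS genes. MIR169e had 5.73 and MIR394b 3.94. Of the 97 miRNA genes with a family number under 400, 13 were marked (13.4%), and of the other 229, 15 (6.55%), a split chosen after the values were seen. Those of higher number include 5 genes of the repetitive MIR854 family. For all but MIR172d and MIR4228 the summits lay outside the annotated gene.

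The overlap of BPC1 regions with PRC2 and its mark was then described. Of the 2262 regions 1358 (60.0%, interval 58.0 to 62.0) overlapped a FIE region by at least 1 bp, and 1057 (46.7%, 44.7 to 48.8) an H3K27me3 region. FIE regions cover 1.76% of the bases and H3K27me3 regions 12.9%. In the other direction 1151 of 4952 FIE regions (23.2%) and 708 of 3928 H3K27me3 regions (18.0%) held a BPC1 region. AZF1 regions lay at 1387 of the BPC1 regions (61.3%), and BPC1 regions at 1369 of 4341 AZF1 regions (31.5%). BPC1 and AZF1 were set against the same input, so these last counts are given as values only.

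On the arms the overlap with FIE and H3K27me3 was larger in groups of higher BPC1 fold, and that with AZF1 was not. At the very top, however, 18 of the 20 highest regions overlapped AZF1. BPC1 regions were put in 5 groups by fold, cut at each 20% of all kept regions. The arms held 221, 314, 356, 352 and 418 of them from lowest to highest. In that order FIE regions lay at 38.9%, 42.4%, 51.7%, 62.8% and 76.6% of BPC1 regions, and H3K27me3 at 43.0%, 43.0%, 49.4%, 57.7% and 70.8%. AZF1 regions, which share the input, lay at 70.6%, 68.2%, 47.2%, 39.5% and 46.2%. The median FIE fold at the shared places was 3.74, 4.41, 5.63, 6.74 and 9.26 in the same order. Regions marking a gene of the transcription factor class made up 4.07%, 7.32%, 11.0%, 13.4% and 16.7%. Widths did not follow the same course, with medians of 151, 128, 129, 138.5 and 181 bp. Over all kept regions the FIE shares were 64.9%, 48.2%, 51.1%, 60.4% and 75.5% from the lowest group to the highest, so the lowest did not have the smallest share. In that group 51.2% of regions lay in gene-poor windows, and in the highest 7.73%.

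**Figure D4:**
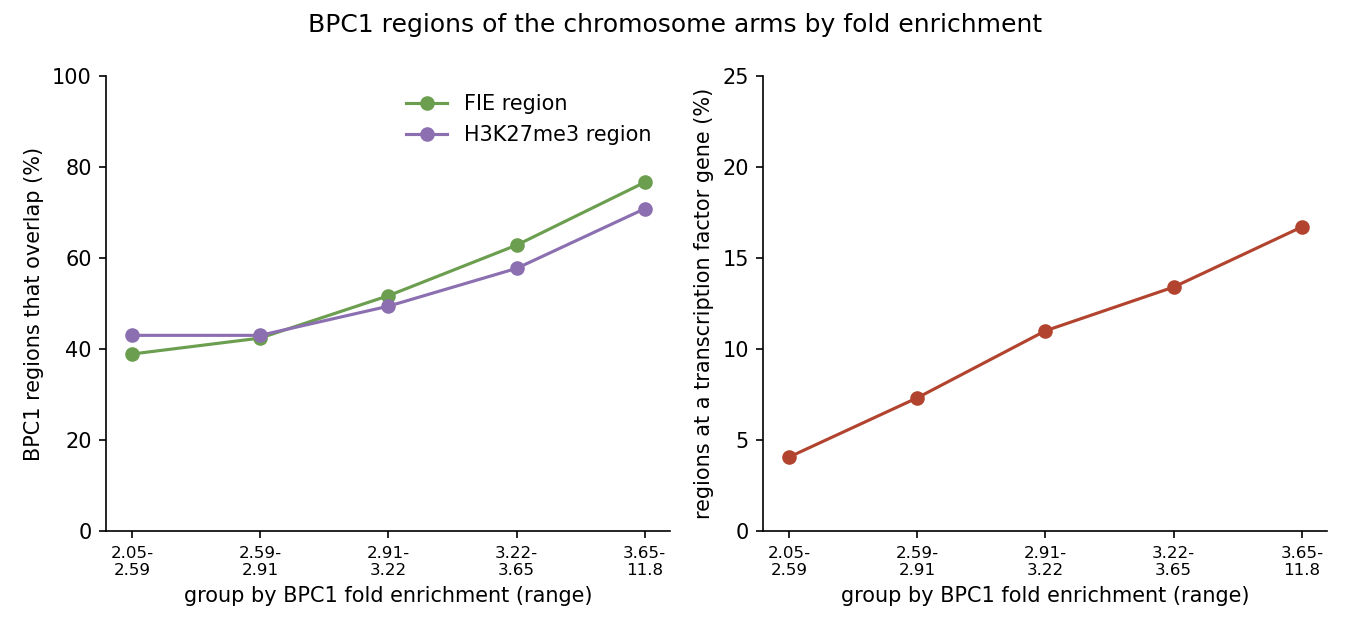
BPC1 regions of the chromosome arms in 5 groups by fold enrichment, cut at each 20% of all kept regions (x axis, range of each group): share overlapping FIE and H3K27me3 regions (left, percent) and share marking a gene of the transcription factor class (right, percent). The share with FIE stood at 38.9% in the lowest group and 76.6% in the highest, and the share at transcription factor genes at 4.07% and 16.7%.

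Regions with both FIE and H3K27me3 formed the largest class on the arms, 725 of 1661 (43.6%). They had a median fold of 3.41 (quartiles 3.00 and 3.91) and 137 of them (18.9%) marked a transcription factor gene. Regions with FIE alone, 219, had a median of 3.14 and a share of 11.9%. Those with H3K27me3 alone, 180, had 2.91 and 6.11%. The 537 regions with neither had a median of 2.99, and 14 of them (2.61%) marked such a gene, while 82.9% of them lay inside genes, against 77.1% of those with both. On the arms FIE lay at 54.3% of BPC1 summits inside genes, 66.8% of those within 1 kb and 65.1% of those further away, and H3K27me3 at 54.5%, 52.4% and 59.4%.

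**Figure D5:**
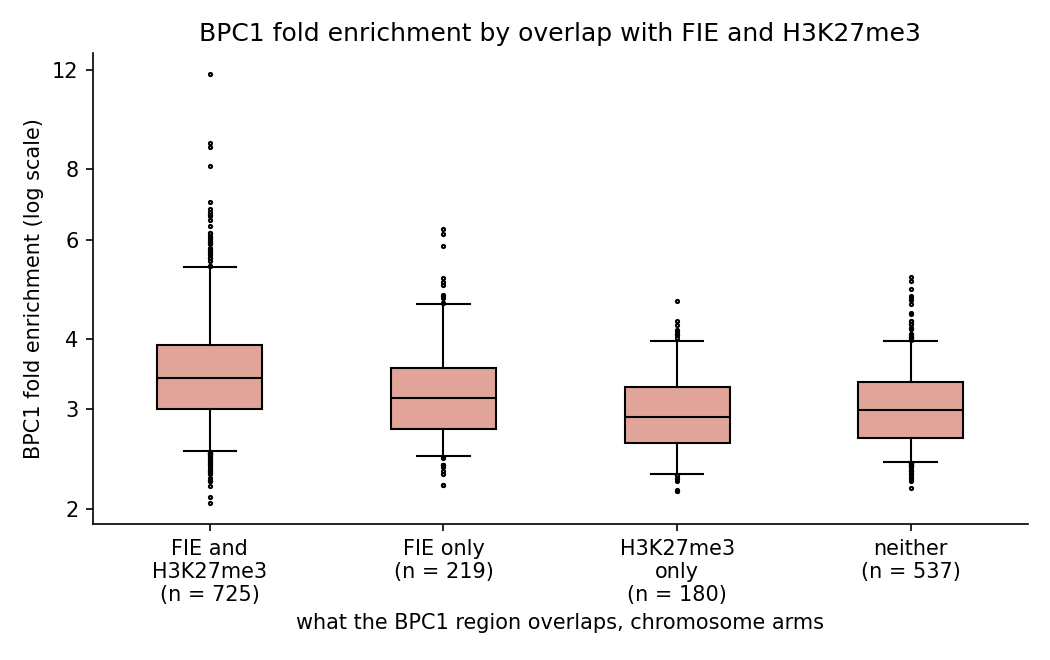
Authors' BPC1 fold enrichment (y axis, log scale) of the regions on the chromosome arms by what they overlap; boxes give quartiles and median, whiskers the 5th and 95th percentile, and dots the regions outside them. The median was 3.41 with FIE and H3K27me3, 3.14 with FIE alone, 2.91 with H3K27me3 alone and 2.99 with neither.

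By gene the same division appeared. The H3K27me3 list is of broad regions without a summit, with a median width of 2991.5 bp. Its gene counts are therefore not on the same footing as those of FIE. Of the 1512 marked protein-coding genes 820 (54.2%) carried H3K27me3 and 769 (50.9%) FIE, while over all protein-coding genes the shares were 27.2% and 9.32%. Seen from the other side, 11.0% of the 7477 H3K27me3 genes, 30.1% of the 2557 FIE genes and 2.64% of the 19103 genes with neither were marked by BPC1. In the transcription factor class the shares marked were 31.8% of 318 H3K27me3 genes, 49.5% of 202 FIE genes and 2.35% of 426 genes with neither. So the class stood above all genes among those with the mark or FIE, and beside all genes among those with neither. Lists of large marked share were also rich in FIE genes. These made up 20 of 23 MADS-box floral, 16 of 19 boundary and 12 of 17 polarity genes. They also made up 10 of 15 KNOX and BELL genes and 19 of 25 floral meristem and organ shape genes. No test was made of these counts. Of the 123 marked genes of the transcription factor class, 101 carried H3K27me3 and 100 FIE.

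Regions far from genes included some of the higher ones. On the arms 106 summits lay further than 1 kb from any gene. The highest had a fold of 5.89 (chromosome 5, 21592319 to 21593158), 3066 bp from AT5G53220, and the next 5.40, 1320 bp from AT5G51795. Further regions of this kind lay 2163 bp from EMF1 (4.73) and 3020 bp from STY1 (4.25), so both genes had regions beyond those counted for them, and 1663 bp from MIR157a (4.24). All 5 overlapped FIE.

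BPC1 regions that overlapped none of the FIE, AZF1 and H3K27me3 lists numbered 267 (11.8%, interval 10.5 to 13.2), and 203 marked protein-coding genes carried none of the other 3. Their fold did not exceed 4.91. The highest were inside AT4G14270 (4.91, chromosome 4, 8219176 to 8219278) and AT2G27580 (4.76). The next was a region 2601 bp from the pseudogene AT4G06548 (4.31), in a gene-poor window. After it came regions inside AT3G50370 (4.16), AT1G59660 (4.07) and the polyubiquitin gene UBQ10 (4.04), and one 69 bp from the pseudogene AT2G11020 (4.01), also in a gene-poor window. AT5G11416 (3.98), AT3G03270 (3.97) and AT3G07090 (3.92) followed, each with the summit inside the gene.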

How the data were processed

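The members, gene lists, families and tests were chosen with earlier results of these data known. Reads were processed with Bowtie2, bedtools and MACS2 2.1.1.20160309 on TAIR10, per the submitters' processing notes, with no settings named. The authors' deposited values are the fold over control at the summit (a ratio), the −log10 p and the −log10 q, whose lowest value is 10. The deposited score is 10 times the −log10 q cut to a whole number. There is 1 list per antibody without replicate columns, how the 3 replicates were combined is not stated, and each region has 1 value.

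Regions were placed by summit against 37899 nuclear genes of a RefSeq table (TAIR10.1, known to share the nuclear sequence of TAIR10). It has no strand, so the planned upstream side became 1 kb at both ends. Of 565 list members 563 were matched, 28 by hand, and 38 genes of misleading name were removed from families. Shares have 95% Wilson intervals and odds ratios Woolf intervals. Fisher's exact tests, two-sided, compared placement (scipy 1.17.1), with Benjamini-Hochberg adjustment over 6 tests, and functions were checked on simulated regions. No per-sample column was left unused. The genes named are those at the 20 highest regions, the 10 with most summits, marked members of the developmental, hormone, BPC and PRC2 lists, up to 4 per other list or family, and the 10 at the highest regions outside the other lists. Other genes were named after their values were seen.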

Additional observations from a re-analysis of the deposited data

Results flagged for a closer look

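The BPC1 list holds signal outside the nuclear regions described above. On the mitochondrial genome it has 420 regions, where the AZF1 list, set against the same input, has 48 and the FIE list 1. On the plastid genome the numbers are 97 for BPC1, 115 for AZF1 and 135 for FIE. On chromosome 2 from 3 to 4 Mb, the mitochondrial insertion, they are 360 for BPC1, 123 for AZF1 and 54 for FIE.

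The BPC1 regions on the mitochondrial genome had a median fold of 2.25 and a median width of 502.5 bp, those of the chromosome 2 window 2.27 and 427 bp, and those kept 3.04 and 145 bp. The 6 regions in UBQ13, a gene known to carry an insertion of mitochondrial DNA in the Columbia accession, had folds of 2.15 to 3.11 and widths of 326 to 533 bp, with no FIE or AZF1 region among them. Whether the amount of organelle DNA differed between the BPC1 ChIP and the input was not tested.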

How the results depend on the processing

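Of 30 recomputed placement comparisons 25 kept their direction and their side of the threshold, all 15 against FIE among them. With the chromosome 2 window kept in, the odds ratio of BPC1 over AZF1 within 1 kb of a gene became 1.00 in place of 0.913, and with protein-coding genes only it became 1.61 and passed. On the chromosome arms the odds ratios of BPC1 over AZF1 turned to 0.824 inside genes, 1.26 within 1 kb and 1.06 further away, of which the first 2 passed, and the gene-poor windows, which hold more of the AZF1 summits, are the part left out there. The number of marked protein-coding genes became 759 with regions above the median −log10 q, which keeps fewer regions by construction, and it was 1036 to 2101 under the other settings. The share of BPC1 regions overlapping AZF1 was 58.7% with at least 50% of the region covered. With only regions above the median −log10 q the shares were 68.3% for AZF1, 73.5% for FIE and 55.8% for H3K27me3. With the window kept in they were 55.6%, 53.1% and 41.5% in that order, and on the arms 52.4%, 56.8% and 54.5%. Of the 25 lists, the count of marked members moved by over 1.5 times in 11 with regions above the median −log10 q, 4 with gene bodies, 1 with genes extended by 500 bp, 3 with 2 kb and 0 on the arms. With regions above the median −log10 q the polarity and root lists had 4 marked members each, embryo and seed and auxin response 3 each, SPL 1, and PRC2 core and BPC 0. Light signalling had 0 with gene bodies and 1 with 500 bp. No paired analysis was possible because the lists have no replicate columns, and for the same reason no replicate could be left out. The planned settings for GA repeats and for gene starts were not run, as no genome sequence or strand was used here. Depth is unknown, so the absence of a region says only that none passed the authors' filter.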

Other observations

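Of the 1512 marked protein-coding genes 504 carried neither FIE nor H3K27me3, and heat shock protein genes were among them. Of 31 heat shock protein genes 3 were marked, HSP70 with a fold of 5.07, HSP81-2 with 3.62 and HSP90.1 with 3.48, each by a summit inside the gene. All 3 carried an AZF1 summit by the same rule, as did UBQ10 and GAPC1. Cell wall genes were marked in 26 of 273 cases (9.52%), with XTH19 at 4.46, EXPA12 at 4.14 and EXPA7 at 3.96, and 15 of the 26 carried H3K27me3, as did 97 of all 273.

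The densest places by number lay in a gene-poor part of chromosome 4. Between 3973933 and 4011705 there were 50 BPC1 regions with folds of 1.98 to 3.42, and all 50 overlapped FIE and AZF1 regions while 1 overlapped H3K27me3. The widest regions, with folds of 2.19 to 2.56 over the first 8 by width, included 12288 bp at the rRNA gene AT3G41768 and 5379 bp at the rRNA gene AT2G01010, both overlapping all 3 other lists.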
